A study of Homo sapiens with 2 samples.

Results

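YAP, TAZ and the TEAD factors are described here through 10 genes: the coactivator genes YAP1 and WWTR1 (which encodes TAZ), the DNA-binding factor genes TEAD1, TEAD3 and TEAD4, and 5 genes widely used as readouts of YAP activity, CCN1, CCN2, ANKRD1, AMOTL2 and AXL. The 10 genes were listed by name, out of 19962 protein-coding genes (chromosomes 1 to 22 and X). An ATAC-seq peak belonged to a gene when it overlapped the gene body or lay within 50 kb of any of its transcript starts (GENCODE release 44, hg38). By this rule the members were 95 peaks of the No gRNA list, out of 67868, and 98 of the All gRNA list, out of 68238. Of these, 28 and 27 lay at a promoter, within 4000 bp of a start of the gene itself, whether or not another gene started nearby. Of the rest, 6 and 7 lay within 1000 bp of the start of a neighbouring protein-coding gene and were counted apart, and 61 and 64 were distal.

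SUM159 is a triple negative breast cancer cell line of the claudin-low, mesenchymal kind. Its cells had been transduced with the lentiviral vector pLV-KRAB, from which they express dCas9-KRAB, a Cas9 that no longer cuts DNA and carries a repressor domain to the site of a guide. Cells of the No gRNA library had this vector and no targeting guide (the empty vector control), and those of the All gRNA library also carried 4 guides against the ZEB1 promoter. Both groups were transduced populations of the same line with the same repressor, and each was represented by 1 library, so no test between the conditions was possible and every difference below is one between 2 libraries. The study used these libraries to ask what repression of ZEB1, a transcription factor of the epithelial-to-mesenchymal transition, did to chromatin accessibility.

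ATAC-seq counts the places where the Tn5 transposase inserts adapters into open chromatin. The deposited peak lists were made per library. The value compared here is the summit pileup, the number of 200 bp windows placed at read ends that cover a peak's highest point. It was recovered from each peak's fold and p as deposited. The No gRNA list corresponds to 8.80e+06 read ends and the All gRNA list to 6.54e+06, so that the depth of All gRNA was 0.743 times that of No gRNA. A ratio is the All gRNA pileup over the No gRNA pileup divided by this depth, so that 1 means equal accessibility at equal depth. Its exact 95% binomial interval covers counting error only and is narrower than the true uncertainty, since both ends of a fragment are counted. Below, the strongest peak of a gene is the one with the highest −log10 q, which sets the pileup against the local background, so it need not have the highest pileup. In a bulk population, fewer cells with a site open and less opening in each cell cannot be told apart.

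At ZEB1 itself, the guide target, the No gRNA list held peaks with pileups of 25 and 27 14 and 372 bp downstream of the main start, and the All gRNA list held none that overlapped them. The mesenchymal markers VIM, CDH2 and FN1 had promoter peaks in both libraries. Of the epithelial markers, ESRP1 and GRHL2 had no promoter peak, and EPCAM and CDH1 had none at the main start. EPCAM had 1 in each library at another annotated start, at −24196 bp in No gRNA and −24142 bp in All gRNA. CDH1 had 1 with a pileup of 7 in No gRNA alone, at another start 63307 bp downstream.

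YAP and TAZ do not bind DNA themselves. In cells at low density or under mechanical tension they enter the nucleus and bind TEAD factors, which hold the DNA sequence GGAATG, while the Hippo kinases phosphorylate them and keep them in the cytoplasm. Many sites bound by YAP and TEAD are distal enhancers that also carry a motif for AP-1, the family of FOS and JUN proteins. In breast cancer cells ZEB1 has been described as a partner of YAP at such sites, where it acts as an activator, besides its better known role as a repressor at E-box sequences such as CAGGTG.

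All 10 genes had promoter peaks in both libraries. Across the 10 genes, 71 peaks matched one to one between the lists, and 53 of them (74.6%) had a ratio below 1. Over all 48041 one-to-one shared peaks of chromosomes 1 to 22 and X the share was 58.1%. At promoters 19 of 21 shared peaks were lower in All gRNA, against 67.8% of the 17000 shared promoter peaks of all protein-coding genes. At distal sites 29 of 45 were lower, against 52.8% of shared peaks outside promoters. All 5 shared peaks at the start of a neighbouring gene were lower, where all shared peaks of the same strength gave 71.8%. The median log2 ratio over the members was −0.28, and over all shared peaks it was −0.11. Scaling by the median of all shared peaks instead of by depth takes out this shift of −0.11. Then 16 of 21 promoter peaks and 26 of 45 distal peaks were below 1. By construction this scaling splits all shared peaks evenly around 1. Its shares for all promoter peaks and all other peaks were not computed, so these counts cannot be set beside them.

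The genes of the coactivators and factors and the genes of their targets did not share one pattern. At CCN1, CCN2, ANKRD1, AMOTL2 and AXL, 28 of 32 shared peaks (87.5%) were lower in All gRNA, with a median log2 ratio of −0.52, where all shared peaks of the same strength gave 62.0% and −0.12. At YAP1, WWTR1, TEAD1, TEAD3 and TEAD4, 25 of 39 (64.1%) were lower, with a median of −0.12, beside 58.1% and −0.08 for all shared peaks of the same strength. The difference was largest at distal peaks, where 16 of 19 were lower at the target genes (median −0.65) and 13 of 26 at the coactivator and factor genes (median 0.05). All shared peaks of the same strength as these distal peaks gave 57.7% and 52.2% lower. At promoters the shares were 10 of 11 and 9 of 10, with medians of −0.45 and −0.23. All shared peaks of the same strength as these promoter peaks gave medians of −0.175 and −0.185. The split by role was made with these values in view and has no test.

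**Figure D1:**
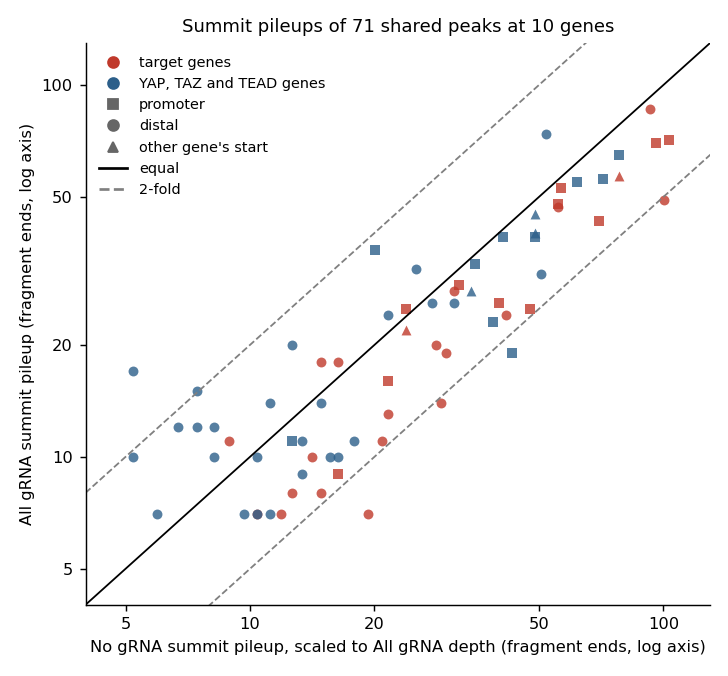
Summit pileup in All gRNA (vertical, log axis) against the No gRNA pileup scaled to the All gRNA depth (horizontal, log axis) for the 71 one-to-one shared peaks at the 10 genes, with target genes in red and the YAP, TAZ and TEAD genes in blue. Of the 32 red points 28 lie below the line of equality, and of the 39 blue points 25 do.

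With the pileups of a gene's promoter and distal pairs summed, the ratio was lowest at AXL and highest at YAP1. It was 0.611 at AXL (0.441 to 0.837, 3 pairs), 0.658 at ANKRD1 (0.483 to 0.890, 3 pairs), 0.705 at AMOTL2 (0.603 to 0.823, 8 pairs), 0.730 at CCN2 (0.572 to 0.928, 6 pairs) and 0.770 at CCN1 (0.672 to 0.882, 10 pairs). Among the coactivator and factor genes it was 0.760 at TEAD3 (0.604 to 0.953, 4 pairs), 0.888 at TEAD1 (0.737 to 1.07, 12 pairs), 0.953 at TEAD4 (0.679 to 1.33, 3 pairs), 1.00 at WWTR1 (0.777 to 1.29, 4 pairs) and 1.03 at YAP1 (0.891 to 1.20, 13 pairs). The 5 target genes and TEAD3 had intervals below 1, the other 4 had intervals that held 1, and genes next to each other in the order of their ratios had overlapping intervals. The WWTR1 value rests on one-to-one pairs alone: with its 2 clusters of unequal match added by their strongest summits, the ratio was 0.772 (0.626 to 0.949), below 1 as well. The same step gave 0.882 at TEAD1, 0.788 at CCN2 and 0.727 at AMOTL2. With every peak of the window included, 12960 protein-coding genes with at least 3 pairs had a median summed ratio of 0.874 and 80.7% were below 1, 32.4% with the whole interval. The intervals of AXL and AMOTL2 lay below that median of 0.874, while those of CCN1, CCN2, ANKRD1 and TEAD3 held it. With every peak of the window included, the ratio was 0.70 at AXL, 0.80 at TEAD3 and 0.96 at WWTR1. It was unchanged at the other members, so that ANKRD1 was then the lowest. By this measure 2.75% of the 12960 genes lay below ANKRD1, 5.76% below AXL, 6.71% below AMOTL2, 10.2% below CCN2 and 18.7% below CCN1. The shares were 26.7% for TEAD3, 54.2% for TEAD1, 71.7% for TEAD4, 73.2% for WWTR1 and 85.1% for YAP1.

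The sequences below were chosen after values and motifs had been seen. They lie at summits described below, or hold the TEAD motifs of the target promoters. The intervals of the CCN1 peak 32239 bp downstream and the CCN2 peak 29020 bp upstream held 1. Of the pairs past 2-fold lower, the CCN1 peak at 48650 bp and the AMOTL2 peak at 46002 bp are not shown. These sequences therefore do not show how often a motif goes with a difference. Each is written on the plus strand of hg38 over 121 bases centred on the No gRNA summit, except for the promoters of CCN2 and ANKRD1, which are the RefSeq promoters (GRCh38.p14, 250 bases before to 50 after the start) on the minus strand, in the direction of the gene. Capitals mark a TEAD motif (GGAATG, or CATTCC on the other strand), an AP-1 motif (TGANTCA on either strand) or an E-box (CAGGTG, or CACCTG on the other strand).
CCN2 promoter, chr6:131951323-131951622: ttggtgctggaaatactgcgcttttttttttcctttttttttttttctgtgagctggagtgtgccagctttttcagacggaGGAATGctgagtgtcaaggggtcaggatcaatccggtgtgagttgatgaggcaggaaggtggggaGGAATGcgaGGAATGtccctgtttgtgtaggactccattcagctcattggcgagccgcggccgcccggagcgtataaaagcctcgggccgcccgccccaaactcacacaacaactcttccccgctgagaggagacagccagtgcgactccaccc
ANKRD1 promoter, chr10:90921038-90921337: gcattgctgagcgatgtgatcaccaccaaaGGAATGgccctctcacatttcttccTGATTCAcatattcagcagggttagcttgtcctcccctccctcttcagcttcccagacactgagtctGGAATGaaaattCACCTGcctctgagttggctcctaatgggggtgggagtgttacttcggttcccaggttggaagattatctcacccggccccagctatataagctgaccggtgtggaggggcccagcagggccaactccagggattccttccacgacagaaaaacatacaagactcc
CCN1 distal peak 31395 bp downstream, chr1:85612096-85612216: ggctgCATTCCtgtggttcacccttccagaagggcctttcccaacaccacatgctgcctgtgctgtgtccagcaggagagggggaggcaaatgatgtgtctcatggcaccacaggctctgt
CCN1 distal peak 32239 bp downstream, chr1:85612940-85613060: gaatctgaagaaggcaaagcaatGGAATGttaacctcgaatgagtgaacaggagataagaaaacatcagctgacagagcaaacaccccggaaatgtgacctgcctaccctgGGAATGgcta
CCN2 distal peak 29020 bp upstream, chr6:131980332-131980452: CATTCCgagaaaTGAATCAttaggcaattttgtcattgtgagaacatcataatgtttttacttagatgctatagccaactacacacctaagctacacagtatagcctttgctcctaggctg
AMOTL2 distal peak of No gRNA alone, 25653 bp downstream, chr3:134348734-134348854: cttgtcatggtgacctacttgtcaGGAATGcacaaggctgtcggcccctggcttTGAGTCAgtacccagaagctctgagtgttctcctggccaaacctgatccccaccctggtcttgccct
AXL internal promoter peak, 6656 bp downstream, chr19:41225819-41225939: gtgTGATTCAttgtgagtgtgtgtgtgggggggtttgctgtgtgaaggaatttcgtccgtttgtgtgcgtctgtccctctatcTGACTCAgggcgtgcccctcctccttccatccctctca
YAP1 promoter peak, 1731 bp downstream, chr11:102112118-102112238: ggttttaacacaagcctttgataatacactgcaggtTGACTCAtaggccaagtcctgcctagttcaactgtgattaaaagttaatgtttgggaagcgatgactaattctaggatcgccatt
WWTR1 intron peak, 75953 bp downstream, chr3:149582012-149582132: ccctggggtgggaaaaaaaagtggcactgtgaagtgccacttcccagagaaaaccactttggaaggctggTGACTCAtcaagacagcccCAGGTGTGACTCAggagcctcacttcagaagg
TEAD3 promoter peak, 983 bp upstream, chr6:35498002-35498122: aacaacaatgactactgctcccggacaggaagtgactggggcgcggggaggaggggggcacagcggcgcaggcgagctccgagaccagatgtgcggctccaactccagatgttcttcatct

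The CCN2 promoter held 3 TEAD motifs, and the ANKRD1 promoter held 2 TEAD motifs, an AP-1 motif and an E-box. The CCN1 summit at 31395 bp held a TEAD motif, and the one at 32239 bp held a pair of them. A TEAD motif stood beside an AP-1 motif at the CCN2 and AMOTL2 distal summits. The WWTR1 intron summit joined an E-box directly to an AP-1 motif, with a further AP-1 motif before them, and the TEAD3 summit held none of the motifs. These letters are matches in the reference, and binding was not measured.

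CCN1 (ENSG00000142871, chromosome 1), which encodes a secreted matricellular protein that binds integrins, had 11 peaks in No gRNA and 12 in All gRNA. The CCN1 promoter and the distal sites downstream of the gene differed in how the libraries compared. At the start, 43 bp inside the first exon, the pileup was 76 in No gRNA against 53 in All gRNA, a ratio of 0.938 (0.648 to 1.35). By −log10 q the strongest promoter peak of both lists lay at −3585 bp in an intron of DDAH1, with similar pileups of 75 and 48 and a ratio of 0.861 (0.587 to 1.25). This peak also lay within 1000 bp of a start of DDAH1. Both promoter intervals held 1. The strongest distal peak of No gRNA, chr1:85611924-85612354, 31395 bp downstream and between genes, had a pileup of 135 in No gRNA against 49 in All gRNA. Its ratio of 0.488 (0.345 to 0.682) was past 2-fold, and 1.28% of shared peaks of the same strength class had a lower one. The peak next to it, at 26650 bp, was the strongest distal peak of All gRNA and had 125 and 86, a ratio of 0.926 (0.695 to 1.23). These neighbouring CCN1 peaks, both strong, thus lay on different sides of the 2-fold limit.

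Farther out, chr1:85628900-85629603 at 48650 bp had a CCN1 pileup of 26 in No gRNA against 7 in All gRNA, a ratio of 0.362 (0.133 to 0.857), the lowest of all 71. The peak at 42588 bp had 56 and 24, a ratio of 0.577 (0.342 to 0.946). The small peak at 32239 bp with the pair of TEAD motifs had 22 and 18, a ratio of 1.10 (0.557 to 2.15), and the one upstream at −24275 bp in DDAH1 had 20 and 18, a ratio of 1.21 (0.604 to 2.41). CCN1 thus held 2 of the 3 distal pairs past 2-fold lower and also distal pairs with a ratio above 1.

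CCN2 (ENSG00000118523, chromosome 6), also called CTGF, encodes a matricellular protein of fibrosis and wound repair and is the most used reporter of YAP and TEAD. All 6 of its shared peaks were lower in All gRNA. The promoter peak over the 3 TEAD motifs, at −112 bp, had a pileup of 43 in No gRNA against 29 in All gRNA, a ratio of 0.908 (0.546 to 1.49). The strongest CCN2 promoter peak of No gRNA, at −3583 bp in an intron of LINC01013, had 54 and 26, a ratio of 0.648 (0.390 to 1.05). The strongest of All gRNA, in an exon at 1238 bp, overlapped a pair of No gRNA peaks, the stronger with 47 against its 36, a ratio of 1.03 (0.649 to 1.63). The strongest distal peak of both lists, at −29020 bp with a TEAD and an AP-1 motif, had 38 and 20, a ratio of 0.708 (0.391 to 1.25). No interval of a single CCN2 peak lay below 1, while that of the 6 pairs summed did.

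ANKRD1 (ENSG00000148677, chromosome 10), a nuclear cofactor with ankyrin repeats that is best known from stressed heart muscle, had 1 promoter peak in each library. This ANKRD1 peak, chr10:90921164-90921785, had a pileup of 64 in No gRNA against 25 in All gRNA, a ratio of 0.526 (0.317 to 0.847). It overlapped the promoter sequence with its 2 TEAD motifs, and its No gRNA summit lay 350 bp upstream of the start. The strongest distal peak of both lists, at −39520 bp, had 42 and 28, a ratio of 0.897 (0.536 to 1.48), and the one at −10244 bp had 29 and 13, a ratio of 0.603 (0.288 to 1.20). A further 3 distal peaks, with pileups of 9, 16 and 11, were in the No gRNA list alone, and no ANKRD1 peak was in the All gRNA list alone. The part of the lower All gRNA depth in this count was not tested.

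AMOTL2 (ENSG00000114019, chromosome 3) encodes an angiomotin family protein that binds YAP and holds it back, a feedback arm of the pathway. Of its 8 shared peaks 7 were lower in All gRNA. The strongest promoter peak of both lists, 10054 bp inside the gene at a further start, had a pileup of 139 in No gRNA against 71 in All gRNA, a ratio of 0.687 (0.509 to 0.921). The one at the main start had 129 and 70, a ratio of 0.730 (0.538 to 0.984). Both AMOTL2 promoter intervals lay below 1. The strongest distal peak, 16315 bp into the gene, had 75 and 47, a ratio of 0.843 (0.573 to 1.23).

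Downstream of AMOTL2 a row of distal peaks was lower as well. The peak chr3:134328309-134328594, at 46002 bp, had 39 in No gRNA against 14 in All gRNA, a ratio of 0.483 (0.242 to 0.909), past 2-fold. Those at 40644 and 37582 bp had 40 and 19 and 28 and 11, with ratios of 0.639 (0.350 to 1.13) and 0.529 (0.238 to 1.10). Only the weak AMOTL2 peak at 22158 bp, with 12 and 11, had a ratio above 1, at 1.23 (0.493 to 3.05). The wide No gRNA peak at 47277 bp, with a pileup of 67, met 2 peaks of All gRNA, with 44 and 29. Against the stronger its ratio was 0.884 (0.590 to 1.31).

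AXL (ENSG00000167601, chromosome 19), a receptor tyrosine kinase linked to mesenchymal state and invasion, had 5 shared peaks in its window, all lower in All gRNA. The strongest AXL peak of both lists lay in an intron, 6656 bp from the main start, at chr19:41225569-41226530. It had a pileup of 94 in No gRNA against 43 in All gRNA, a ratio of 0.616 (0.419 to 0.892), and 7.82% of shared peaks in its strength class were lower. The peak at the main start was weak in both, with 22 and 9, a ratio of 0.551 (0.223 to 1.24). The sole distal peak of No gRNA, at −42885 bp, had 14 and 7, a ratio of 0.673 (0.230 to 1.78). At the neighbouring gene HNRNPUL1 inside the AXL window the stronger peak had 105 and 57, a ratio of 0.731 (0.520 to 1.02).

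**Figure D2:**
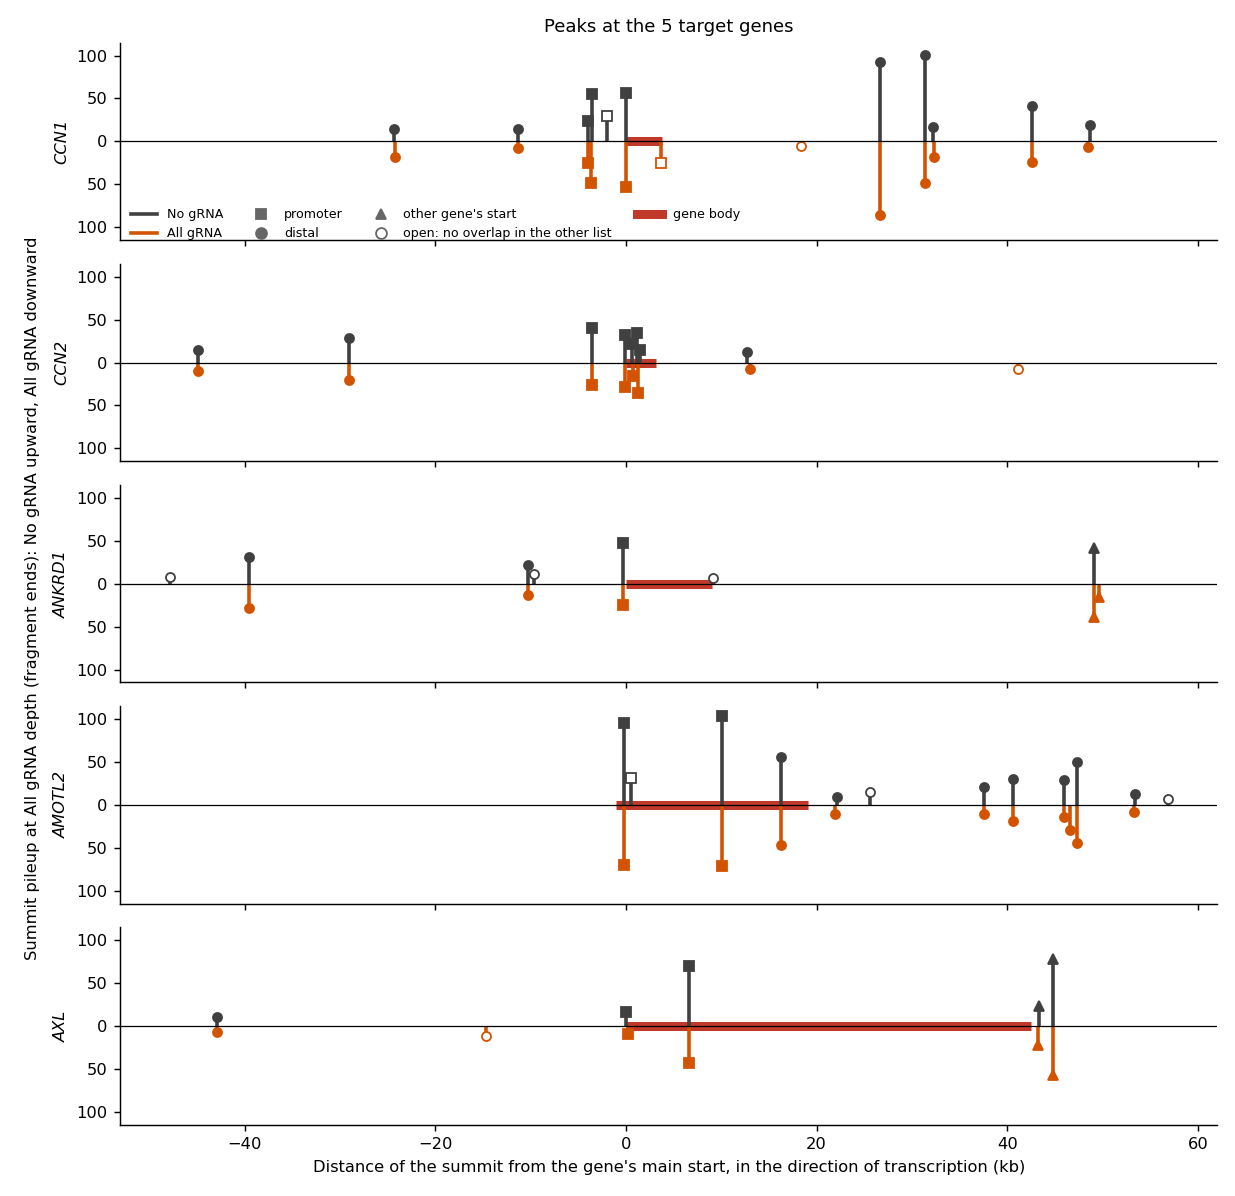
Each target gene's peaks by the distance of their summit from the main start, in kb along the direction of transcription, with the No gRNA pileup scaled to the All gRNA depth drawn upward and the All gRNA pileup drawn downward. Squares are promoter peaks, circles distal peaks, triangles peaks at another gene's start, and open symbols peaks with no overlap in the other list; the CCN1 peak at 31395 bp reaches 100.3 upward and 49 downward.

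YAP1 (ENSG00000137693, chromosome 11), the coactivator itself, had 13 shared peaks, of which 6 were lower in All gRNA. The promoter peak at the main start had a pileup of 66 in No gRNA against 39 in All gRNA, a ratio of 0.795 (0.521 to 1.20). The YAP1 peak at 1731 bp, over an AP-1 motif, had 52 and 23, a ratio of 0.595 (0.348 to 0.990). The promoter peak at an internal start, 113652 bp into the gene, was the strongest promoter peak of All gRNA by −log10 q, though not by pileup, and went the other way, with 27 and 36 and a ratio of 1.79 (1.06 to 3.07). So did the strongest distal peak of both lists, 158417 bp from the start and beyond the end of the gene, with 70 and 74 and a ratio of 1.42 (1.01 to 2.00). Of the shared peaks in their strength classes, 96.6% and 97.4% were lower than these. The remaining YAP1 intervals held 1.

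WWTR1 (ENSG00000018408, chromosome 3), which encodes TAZ, was spread over the widest range. Its main promoter, at −130 bp, had a pileup of 96 in No gRNA against 56 in All gRNA, a ratio of 0.785 (0.554 to 1.10). The strongest distal peak of both lists, at 11600 bp, had 37 and 26, a ratio of 0.946 (0.550 to 1.60). The intron peak chr3:149581920-149582244 with its E-box and AP-1 motifs had 7 and 17, a ratio of 3.27 (1.29 to 9.32). It was the sole member peak past 2-fold higher. Close by, at an internal WWTR1 start 81671 bp into the gene, a No gRNA peak with a pileup of 91 met 2 All gRNA peaks with 30 and 16. Against the stronger its ratio was 0.444 (0.283 to 0.677), and it is not among the 71 pairs since the match was not one to one.

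The TEAD genes encode the DNA-binding side of the complex and overlap in function. TEAD1 (ENSG00000187079, chromosome 11) had a pileup of 83 in No gRNA against 55 in All gRNA at its main promoter, a ratio of 0.892 (0.622 to 1.27). Its strongest distal peak in both lists, 19544 bp into the gene and over an AP-1 motif, had 68 and 31, a ratio of 0.614 (0.388 to 0.951). The other 9 distal TEAD1 pairs had pileups of at most 21 and intervals that held 1. TEAD4 (ENSG00000197905, chromosome 12) had 55 and 39 at its promoter, a ratio of 0.954 (0.616 to 1.47). Its strongest distal peak, at 82445 bp, had 20 and 14, a ratio of 0.942 (0.440 to 1.96), and the 3 TEAD4 pairs had log2 ratios between −0.09 and −0.06.

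TEAD3 (ENSG00000007866, chromosome 6) was the exception among the factor genes. Its main promoter peak, at −257 bp and strongest in both lists, had a pileup of 105 in No gRNA against 65 in All gRNA, a ratio of 0.833 (0.602 to 1.15). The second promoter peak, chr6:35497759-35498261 at −983 bp in an exon of TULP1, had 58 and 19, a ratio of 0.441 (0.248 to 0.751). It was the sole promoter pair of the 10 genes past 2-fold lower, and 2.47% of its strength class were lower. The strongest TEAD3 distal peak, 11333 bp into the gene, had 42 and 26, a ratio of 0.833 (0.490 to 1.39).

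**Figure D3:**
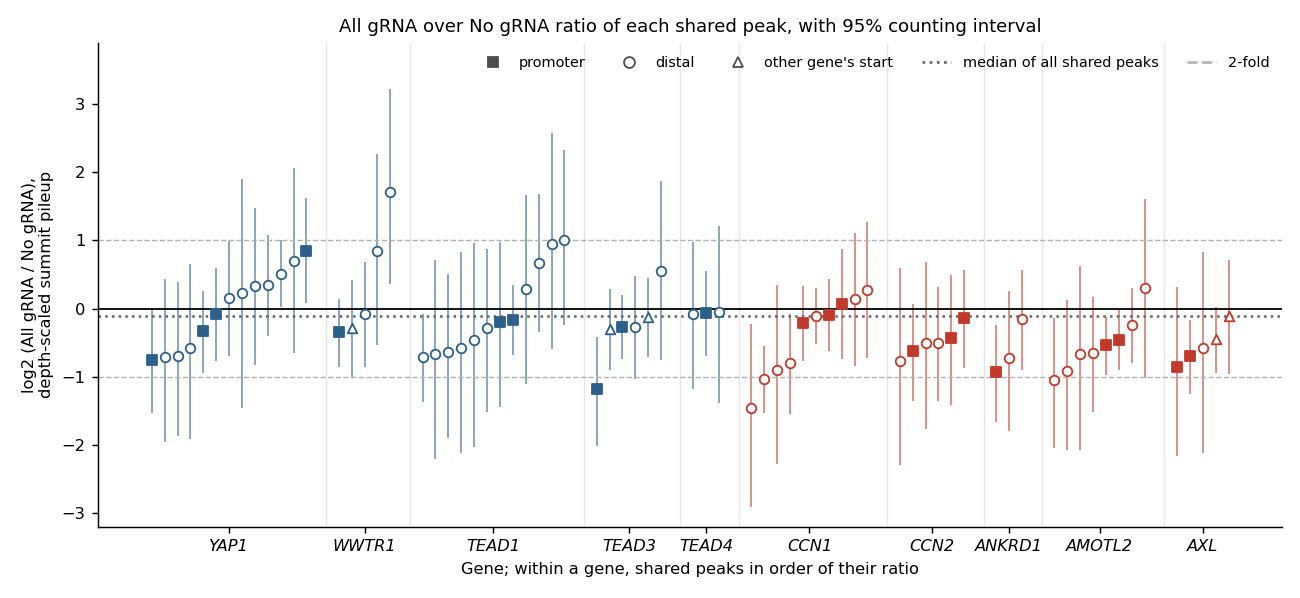
The log2 ratio of All gRNA over No gRNA for each of the 71 shared peaks, by gene and in order within a gene, with 95% counting intervals; filled squares are promoter peaks, open circles distal peaks and open triangles peaks at another gene's start. The dotted line is the median of all shared peaks (−0.11), and most of the target genes' points on the right lie under it.

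In all, 4 of the 71 shared member peaks were past 2-fold lower with an interval below 1, against 3.27% of all shared peaks, and 1 was past 2-fold higher, against 2.44%. The 4 were the 2 CCN1 distal peaks, the AMOTL2 distal peak and the TEAD3 promoter peak, and the 1 was the WWTR1 intron peak. Under the scaling by the median of all shared peaks, 2 were lower and 1 higher, and the shares over all shared peaks were not computed. With the fold limit left out, 11 intervals lay wholly below 1 (15.5%, against 8.85% of all shared peaks) and 3 wholly above (4.23%, against 3.42%). The target genes held 8 of the 11 and none of the 3, and the YAP, TAZ and TEAD genes held 3 of each. The remaining 57 member intervals held 1.

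Strong peaks were lower in All gRNA more often than weak ones across the genome, so the members were set beside all shared peaks of like strength. Of 5 equal classes by strength, the strongest had a median over all shared peaks of −0.23 with 76.8% lower, and the weakest a median of 0.07 with 43.7% lower. Of the target genes' pairs, 9 of 9 in the strongest class and 8 of 9 in the next were lower, and below that 4 of 6, 5 of 5 and 2 of 3. Those of the YAP, TAZ and TEAD genes gave 8 of 9, 6 of 9, 0 of 1, 7 of 10 and 4 of 10 in the same order, so in the strongest class both groups were nearly all lower. In the weakest class 6 of the 13 member pairs were lower, and 10 of these 13 belonged to the coactivator and factor genes.

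**Figure D4:**
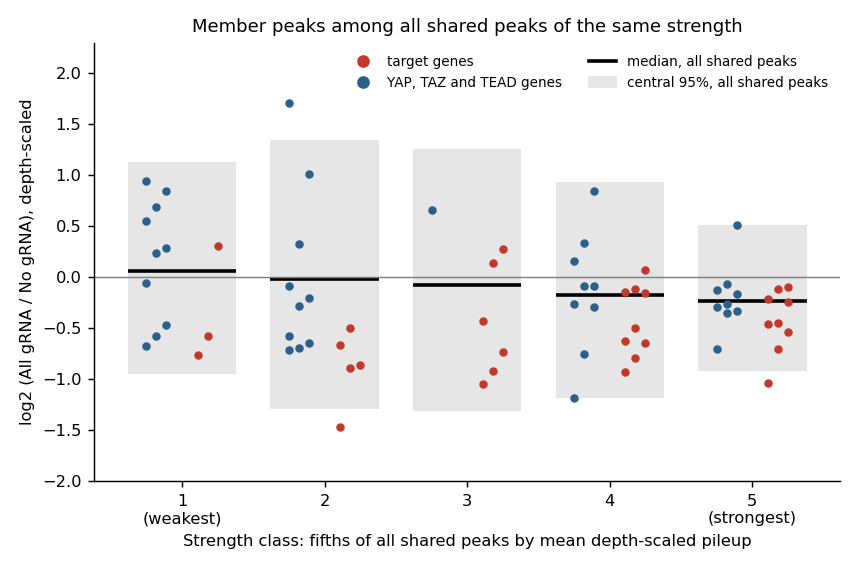
The log2 ratio of the member peaks (red, target genes; blue, YAP, TAZ and TEAD genes) in 5 equal classes of all shared peaks by mean depth-scaled pileup; the black line is the median and the grey box the central 95% of all shared peaks in the class. The median of all shared peaks falls from 0.07 in the weakest class to −0.23 in the strongest, and the red points lie mostly under it.

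Peaks without any overlap in the other list were a smaller share at these genes than over the genome. They numbered 17 of 95 in No gRNA (17.9%, against 24.7% of all No gRNA peaks) and 16 of 98 in All gRNA (16.3%, against 23.8%). The target genes held 7 of the 17 and 4 of the 16. The pileups were low, with a median of 11 in No gRNA against 10 in All gRNA, and 6 and 3 of them had a −log10 q of at least 10. A further 7 No gRNA and 11 All gRNA peaks overlapped the other list without a one-to-one match, in 6 clusters.

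Of the stronger No gRNA peaks without a partner, 3 lay at WWTR1, in introns at 61606, 36585 and 3614 bp with pileups of 14, 13 and 34, and 1 in an intron of TEAD1 at 166701 bp with a pileup of 14. The other 2 lay at AMOTL2. The AMOTL2 promoter peak at 560 bp had a pileup of 43 and ended 274 bp from the All gRNA peak at the main start, and the distal peak at 25653 bp, with its TEAD and AP-1 motifs, had a pileup of 21. Of the stronger All gRNA peaks without a partner, 1 lay in WWTR1 at the edge of an internal promoter, 77680 bp into the gene, with a pileup of 27. Another lay in an intron of FANCE within the TEAD3 window, with a pileup of 21. The AXL window held the last, in an intron of CYP2S1 at −14678 bp with a pileup of 11, the strongest distal peak of the All gRNA list at AXL. WWTR1, with 5 such peaks in No gRNA and 4 in All gRNA, had the most of any of the 10 genes.

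The motif content of the peaks was unequal between the target genes and the other members. The whole TEAD motif lay within 100 bp of the summit in 12 of 43 target gene peaks in No gRNA (27.9%) and 15 of 41 in All gRNA (36.6%), against 14.6% and 14.1% of all peaks. Of the peaks at the YAP, TAZ and TEAD genes, 4 of 52 (7.69%) and 5 of 57 (8.77%) did. Among distal peaks the target genes had 8 of 25 in No gRNA and 7 of 24 in All gRNA, against 16.8% and 16.0% of all peaks outside promoters. The TEAD and AP-1 motifs stood together at 5 target gene peaks in each library and at none of the YAP, TAZ and TEAD genes, where the share over all peaks was 4.91% and 4.96%. This 0 depends on the window: a YAP1 distal peak held an AP-1 motif inside it and a TEAD motif whose far end lay 101 bp from the No gRNA summit and 102 bp from that of All gRNA. The AP-1 motif, with or without a TEAD motif, was held by 30 of 95 member peaks in No gRNA (31.6%) and 25 of 98 in All gRNA (25.5%), against 30.3% and 31.2%. The E-box was held by 12 of 95 and 12 of 98, against 11.6% and 13.1%. By group, 6 of 43 target gene peaks held it in No gRNA and 2 of 41 in All gRNA. At the YAP, TAZ and TEAD genes 6 of 52 and 10 of 57 did. The reference sequence is the same for both libraries, so a summit that moves can change which motifs lie in the window. At shared promoter peaks of CCN1, ANKRD1 and AMOTL2, a TEAD motif lay outside it in No gRNA and inside it in All gRNA. The reverse held at the TEAD4 promoter peak. A difference in share between the libraries is thus not a change in motif content. Peaks of a gene share a locus and are not independent, so these shares are descriptions.

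**Figure D5:**
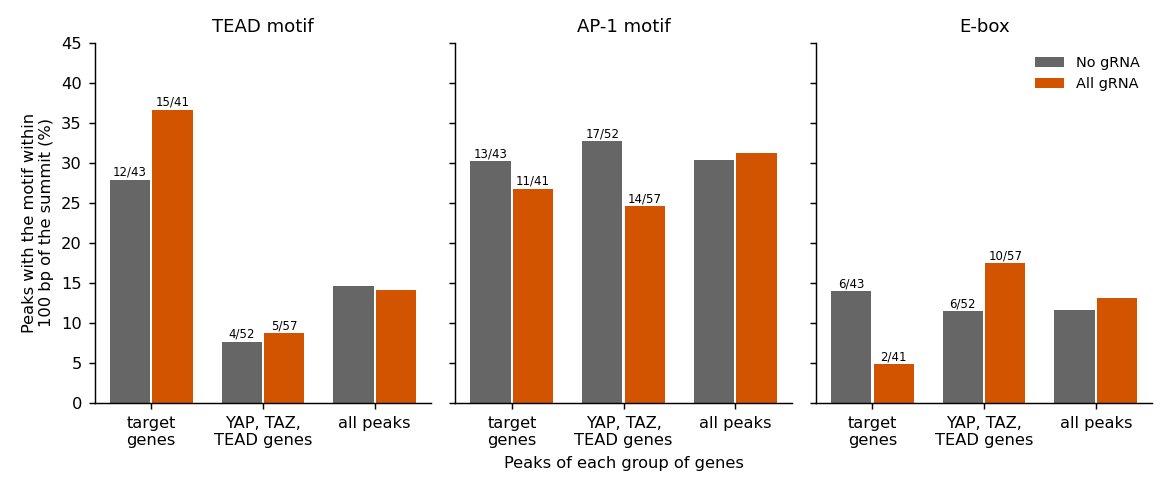
Share of peaks with a TEAD motif (GGAATG), an AP-1 motif (TGANTCA) or an E-box (CAGGTG) within 100 bp of the summit, in percent, for the target genes, the YAP, TAZ and TEAD genes and all peaks, in No gRNA (grey) and All gRNA (orange); numbers above the bars are peaks with the motif over peaks. The TEAD motif stands at 27.9% and 36.6% for the target genes and at 14.6% and 14.1% for all peaks.

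Most target gene pairs were lower both with and without the TEAD motif. Of the 9 target gene pairs with the motif 8 were lower, with a median log2 ratio of −0.50, and of the 23 without it 20 were lower, with a median of −0.57. The CCN1 peak at 31395 bp, with the motif, was past 2-fold lower, and the CCN1 peak at 32239 bp, with a pair of motifs, had a ratio above 1. With the AP-1 motif, 8 of 8 target gene pairs were lower, and 6 of 13 at the YAP, TAZ and TEAD genes. Without it, 20 of 24 and 19 of 26 were lower. Over all shared peaks, 53.6% of those with the AP-1 motif were lower and 60.3% of those without it.

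RefSeq promoters were at hand for 7 of the 10 genes. The TEAD motif was in the promoters of CCN2, ANKRD1, YAP1, in 1 of 2 of AMOTL2 and in 1 of 2 of AXL, and was not in those of TEAD3 and WWTR1. Of all 35116 promoters of that length 14.0% held it. ANKRD1 was the sole one of the 7 with an AP-1 motif there (7.71% of all promoters), and ANKRD1 and AXL held the E-box (20.6%).

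The rest of the pathway gives the setting of these genes. Of 18 Hippo pathway genes, 17 had promoter peaks in both libraries, VGLL1 had none in either, and 21 of 34 shared promoter peaks were lower in All gRNA (61.8%, against 67.8% of all shared promoter peaks). None had a promoter peak past 2-fold lower. WWC1 (KIBRA), a scaffold that activates the LATS kinases, had one past 2-fold higher at −2970 bp, with pileups of 18 and 29 and a ratio of 2.17 (1.16 to 4.15). VGLL4, which competes with YAP for TEAD, had one at a start at −126818 bp, with 15 and 32 and a ratio of 2.87 (1.51 to 5.71). Of 13185 protein-coding genes with a shared promoter peak, 4.25% had one past 2-fold lower and 1.56% one past 2-fold higher.

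All 15 further YAP target genes had promoter peaks in both libraries, and 26 of their 35 shared promoter peaks were lower (74.3%, against the same 67.8%). RBMS3, an RNA-binding protein gene, had a peak past 2-fold lower at an internal start, with pileups of 35 and 10 and a ratio of 0.385 (0.170 to 0.793). CCDC80, a matrix protein gene whose accessibility the study had described from these libraries, had one at −6203 bp with 54 and 18 and a ratio of 0.449 (0.248 to 0.777). None of the 33 genes had all its promoter peaks in 1 library alone, where 2.92% of all genes had them in the No gRNA list alone and 2.56% in the All gRNA list alone. Single promoter peaks without a partner were more common in No gRNA: the further YAP targets had 13 of 49, 4 of them at MYOF, against 2 of 39 in All gRNA, and the Hippo pathway genes 11 of 46 against 4 of 40. Over all promoter peaks the shares were 17.5% in No gRNA and 12.5% in All gRNA.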

How the data were processed

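ATAC-seq was compared between 1 No gRNA and 1 All gRNA library of SUM159 cells. The authors used fastp for trimming and bowtie2 for alignment to hg38, took out duplicates and reads that were mitochondrial or in the ENCODE exclusion list, and called peaks per library with MACS2 and no control. Per the labels no tool version is given in the sources used here. The deposited lists hold, for each peak, the fold over the local background (a ratio), the −log10 of p and of q, a score (not used further), and the position and summit (other). The 10 genes, the wider lists and the split by role were chosen with earlier results of these data known.

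From fold and −log10 p the whole-number pileup was recovered for 100% of peaks of both lists. A value counted as whole when it gave back −log10 p within a relative error of 0.001. The stated extension was 150 bp, but the values fit a window of 200 bp. Where this window lies relative to the read end was not tested. Depth came from the lowest background of each list. Recovery of the pileup and coverage of the interval were tested on simulated data. The simulated counts were independent at a set depth. The depth estimate, the matching of peaks and the counting of both fragment ends were therefore not tested. Peaks were shared at 1 bp of overlap. Ratios of one-to-one pairs have exact 95% binomial intervals, and a pair was past 2-fold when its interval also left out 1. No p-values were computed, with 1 library a group. Motif letters were searched on both strands of hg38 within 100 bp of the summit. For each gene the strongest promoter and distal peak of each list, each peak without a partner and with a −log10 q of at least 10, and each pair past 2-fold were described; other peaks were added after their values were seen. Alternatives were other thresholds, windows, promoter widths, matching rules and scalings. Python 3.11.15, numpy 2.4.6, scipy 1.17.1, pandas 2.3.3 and matplotlib 3.10.9 were used.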

Additional observations from a re-analysis of the deposited data

How the results depend on the processing

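No paired analysis was possible because No gRNA and All gRNA were 1 library apiece, and no replicate could be left out. Of 88 alternatives, 65 left a result close to its reported value and 23 moved it. Close meant a count within 1.5 times its reported value, a median within 0.1 or a summed ratio within its interval. A change of direction was not scored, though the medians of both gene groups stayed negative in every setting. The settings for the split by role and the summed ratios were added after seeing the data. The summed WWTR1 ratio (1.00) became 0.772 with the clusters of unequal match added. Peaks in No gRNA alone (17 of 95) became 30 of 95 with a 50% overlap rule and 6 of 65 at a −log10 q of 10. Those in All gRNA alone (16 of 98) became 33 of 98 with the 50% rule and 28 of 98 with summits within 150 bp. They became 9 of 77 at a −log10 q of 5 and 3 of 47 at 10. Pairs past 2-fold lower (4 of 71) became 2 of 56 at a −log10 q of 5. They became 1 of 47 with a window of 20 kb and 2 of 71 when scaled by the median ratio. Those past 2-fold higher (1 of 71) became 0 of 56 at a −log10 q of 5. They became 2 of 99 with a window of 100 kb and 2 of 78 with the strongest overlapping partner. With the window of 20 kb, 15 of 25 distal pairs, 14 of 16 target gene pairs and 19 of 131 TEAD motif peaks remained, from fewer peaks. Peaks with a TEAD motif (36 of 193) became 60 of 193 within 200 bp and 68 of 193 over the whole peak. The shares of all peaks at these widths were not computed. Peaks with an AP-1 motif (55 of 193, 28.5%) became 85 of 268 (31.7%) with a window of 100 kb. The median of the target genes moved to −0.41 when scaled by the median ratio, and that of the YAP, TAZ and TEAD genes (−0.12) to −0.02, to −0.26 with a window of 20 kb or summits within 150 bp; 27 of 32 and 20 of 39 pairs were then lower under the median scaling. Apart from fewer peaks or wider windows, the cause was not tested. Weak peaks limit the counts: the lowest pileup in a list was 5 in No gRNA and 4 in All gRNA.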

Other observations

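The wider set of shared peaks outside promoters was split by motif, after the member values had been seen. Of 5280 with a TEAD motif within 100 bp of the summit 56.5% were lower in All gRNA, with a median log2 ratio of −0.10, and of 25761 without it 52.1% were, with a median of −0.03. In the strongest of 5 strength classes the shares were 75.6% with the motif and 70.9% without, and in the weakest 46.7% and 42.8%. Peaks with the E-box CAGGTG went the other way: 45.8% of 3426 were lower (median 0.07), against 53.7% of 27615 without it (median −0.06). Among All gRNA peaks outside promoters, the E-box was held by 15.8% of those without a partner and 11.5% of shared ones, and in No gRNA by 11.2% of both. Genomic peaks are not replicates, so these are descriptions of 2 libraries.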
